A study of Homo sapiens with 38 samples.

Results

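The genes of the nuclear pore complex were followed in 6 lymphoma cell lines exposed to 2 histone deacetylase (HDAC) inhibitors, pracinostat and vorinostat. The members were 30 nucleoporin genes taken from a fixed list of symbols, and all 30 were found among the 18011 genes of the count table. They were ordered by their place in the pore: 5 of the inner ring, 9 of the outer ring, 4 of the membrane ring, 4 of the central channel, 5 of the cytoplasmic face and 3 of the nuclear basket. Of the 30, 10 are FG nucleoporins, whose phenylalanine-glycine repeats line the transport path. The lines OCILY1, PFEIFFER, SUDHL4, SUDHL6, TOLEDO and WSUDLCL2 are established human diffuse large B-cell lymphoma lines, each grown out of 1 tumour. The study asks why such lines differ in their sensitivity to HDAC inhibition. At 6 h there were 6 DMSO libraries, 6 with pracinostat and 5 with vorinostat (none for SUDHL6). At 14 days there were 5 libraries each of pracinostat, vorinostat and of the solvent sets titled DMSOP and DMSOV, with SUDHL6 absent. DMSO is the solvent of the drugs, and each drug at 14 days was set against the solvent set whose title ends in its first letter, a reading of the titles. The 6 h titles say only DMSO. Column names of the deposited log2 values, however, read DMSOV for SUDHL4, SUDHL6, WSUDLCL2 and OCILY1 at 6 h. They read DMSOP for TOLEDO and PFEIFFER. These 6 h libraries were used as 1 solvent group for both drugs, so some lines were set against solvent lettered for the other drug. The sources used here state no doses.

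The nuclear pore complex is a ringed channel through both membranes of the nuclear envelope, and all regulated traffic of protein and RNA between nucleus and cytoplasm passes through it. Inner and outer rings form the scaffold, membrane nucleoporins hold it in the envelope, FG nucleoporins make the selective barrier, and the cytoplasmic face and nuclear basket receive cargo. Pores are taken apart at each mitosis in animal cells and rebuilt around the daughter chromatin, and cells double their pores through interphase. HDAC inhibitors of the hydroxamic acid type, as both drugs are, block the removal of acetyl groups from histones and other proteins.

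Library totals ran from 3188528 to 8919622 counts over the 37 libraries, and the lowest raw count of any nucleoporin in any library was 30, for NUP35. The B-cell genes MS4A1, CD79A, CD79B, PAX5, CD22 and CD74 were each at 47.9 CPM or more in every library, where CPM is a gene's count scaled to a common library size. The T-cell gene CD8A stood at 523 to 1272 CPM in the 7 PFEIFFER libraries and at no more than 8.35 CPM in the other lines, while CD3D reached no more than 3.30 CPM in any library. Within PFEIFFER CD8A was at 1136 to 1272 CPM in the 3 solvent libraries and at 523 to 662 in the 4 drug libraries. PFEIFFER also carried the epithelial gene EPCAM, at 260 to 276 CPM in solvent, 237 and 239 with drug at 6 h and 88.7 and 85.8 at 14 days (pracinostat first). Whether these signals bear on the nucleoporin values was not tested. In the drug comparisons cell lines served as replicates, each with a single library in a group, and p-values measure how a treatment's effect varied from line to line. The labels do not say whether a line's libraries were grown as separate cultures. In RNA from bulk cells, fewer cells of a kind and less RNA per cell cannot be told apart.

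Promoter sequences from RefSeq (GRCh38.p14) were matched to 28 of the 30 members by symbol, with AHCTF1 and NUP43 unmatched. The window was the 250 bases before the RefSeq start. Shown are 3 members that fell at both times with each drug (NUP188, chr9:128947449-128947698, plus strand; NUP205, chr7:135557667-135557916, plus strand; NUP153, chr6:17706926-17707175, minus strand) and NUP133 (chr1:229508342-229508591, minus strand), which rose at 6 h and fell at 14 days. Sequences run 5′ to 3′ on the gene's strand, and capitals mark matches to the motifs listed after them.
NUP188: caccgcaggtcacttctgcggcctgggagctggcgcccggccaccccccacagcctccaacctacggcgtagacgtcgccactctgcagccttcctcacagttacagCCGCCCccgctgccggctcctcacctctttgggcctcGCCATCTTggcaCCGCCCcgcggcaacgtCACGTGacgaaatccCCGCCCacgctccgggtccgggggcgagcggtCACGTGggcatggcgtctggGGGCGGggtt
NUP205: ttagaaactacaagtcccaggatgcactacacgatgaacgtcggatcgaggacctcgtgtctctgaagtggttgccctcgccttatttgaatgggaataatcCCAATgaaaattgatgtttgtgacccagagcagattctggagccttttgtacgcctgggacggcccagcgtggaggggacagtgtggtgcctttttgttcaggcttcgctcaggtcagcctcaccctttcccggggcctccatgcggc
NUP153: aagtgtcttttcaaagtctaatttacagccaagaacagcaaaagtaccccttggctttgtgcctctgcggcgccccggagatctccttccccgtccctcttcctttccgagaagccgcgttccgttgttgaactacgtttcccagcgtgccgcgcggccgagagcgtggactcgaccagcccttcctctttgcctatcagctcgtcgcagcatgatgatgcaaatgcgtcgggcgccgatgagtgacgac
NUP133: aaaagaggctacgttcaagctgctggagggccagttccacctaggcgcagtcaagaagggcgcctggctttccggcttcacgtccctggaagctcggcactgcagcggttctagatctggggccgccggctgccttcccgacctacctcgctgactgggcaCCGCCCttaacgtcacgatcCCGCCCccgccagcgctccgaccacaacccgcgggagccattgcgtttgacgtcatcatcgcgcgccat

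Motifs searched on both strands were the ETS site CCGGAAG, the NRF1 site (GCGC, any base N, then TGCGC), the CCAAT box written as ATTGG, the E box CACGTG, the GC box GGGCGG, an E2F site TTGGCGC and a YY1 site AAGATGGC. The ETS letters were present in 12 of 28 nucleoporin promoters (42.9%), against 8.52% of the 35116 promoters in the table and 14.3% of the 15055 promoters of genes tested here. NRF1 letters stood in 4 of 28 (14.3%, against 5.07% of all promoters and 9.06% of tested genes). The GC box was in 12 of 28 (42.9%, against 42.6% of all promoters and 62.7% of tested genes) and the CCAAT box in 10 (35.7%, against 32% and 33.1%). The E box was in 2 (7.14%, against 6.34% of all promoters and 8.21% of tested genes). The E2F and YY1 letters were in 1 each (3.57%), against 2.56% and 1.36% of all promoters and 3.69% and 1.83% of tested genes. No match overlapped a match of another motif among the 68 matches. The promoters of NUP188 held GC boxes, E boxes and a YY1 match, that of NUP205 held 1 CCAAT box, that of NUP133 held 2 GC boxes, and that of NUP153 held none of the 7 motifs. A match describes the letters in the window, not a bound site.

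Levels in solvent were compared per length. Values in RPKM, which is CPM divided by the length of the gene's exons in kilobases, had medians over the 16 solvent libraries from 6.03 for NUP214 to 52.3 for NUP210. Next to NUP210, a membrane glycoprotein of the pore, stood NDC1 (34.8), the basket protein NUP153 (34.0) and the inner-ring scaffold NUP205 (32.7). NUP35, the small membrane-binding inner-ring protein, was near the bottom at 6.42. Within the outer-ring Y complex, whose proteins assemble together, medians ran from 10.8 for SEH1L to 21.9 for NUP43. The ranges of neighbours in this order overlapped between libraries: NUP205 spanned 20.9 to 46.1 RPKM and NDC1 23.1 to 64.6.

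**Figure D1:**
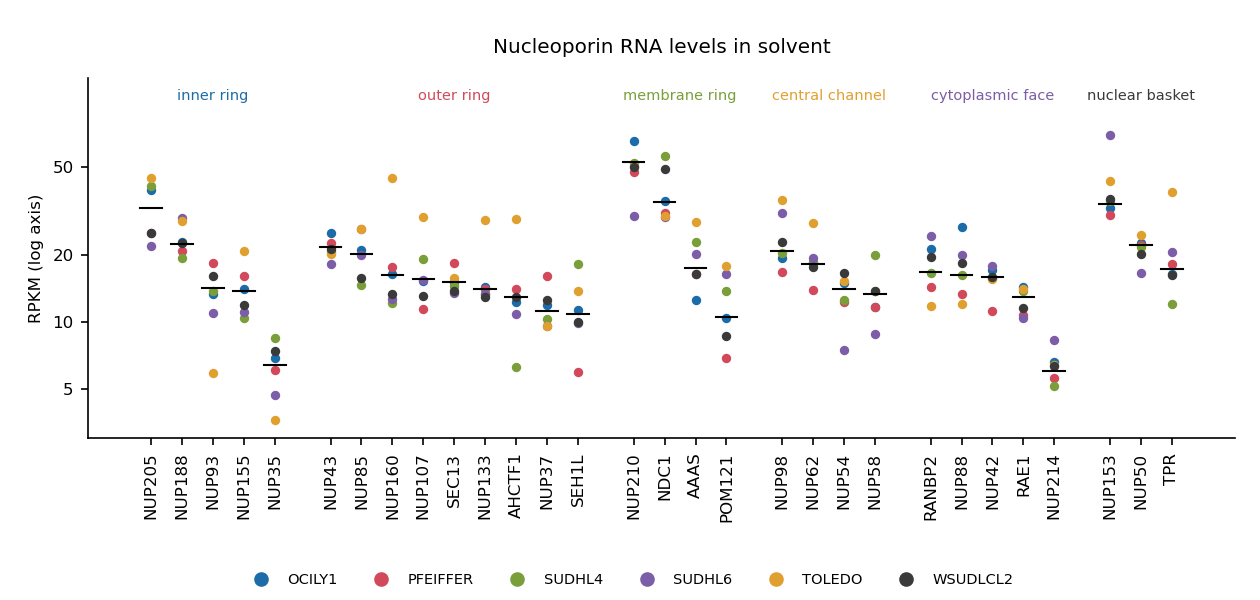
RPKM of each nucleoporin in solvent on a log axis, by place in the pore. Points are the means of a line's solvent libraries (1 for SUDHL6, 3 for the others) and bars the median of all 16 libraries. TOLEDO stands above the other lines for NUP160, AHCTF1, TPR and NUP133 and below them for NUP93 and NUP35.

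Lines differed in solvent for 27 of 30 members (edgeR quasi-likelihood test, adjusted p under 0.05), where 90.7% of the 12986 genes tested also differed, so the members' share was close to that of all genes. In this test the replicates were solvent libraries of the same line, so these calls are not replicated over lines. The 3 not called were NUP214, NUP43 and NUP50. TOLEDO had the highest mean of any line for 13 members. AHCTF1, the chromatin-binding protein that seeds pore assembly after mitosis, had 29.2 RPKM in TOLEDO and 6.24 in SUDHL4, a 4.68-fold span between lines. NUP160, a Y-complex scaffold protein, had 44.5 RPKM in TOLEDO and 12.1 in SUDHL4 (3.67-fold). TPR, the long coiled-coil protein of the basket, spanned 3.17-fold between the same lines. TOLEDO was in contrast the lowest line for NUP93 (5.86 RPKM, against 18.4 in PFEIFFER). SEH1L was highest in SUDHL4 (18.2 RPKM) and lowest in PFEIFFER (5.96).

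Few members differed between the solvent libraries of 6 h and those of 14 days, where time in culture and handling cannot be told apart. From 6 h to 14 days in solvent, 3 rose and 2 fell of 30, where 23.3% of 12986 genes were called. Each line present at 14 days gave 2 libraries there, DMSOP and DMSOV, which entered as separate replicates. The p-values of this comparison can therefore understate how the change varied between lines. NUP205 (0.30, SE 0.09, adjusted p = 0.0226), NUP37 (0.28, SE 0.09, adjusted p = 0.0338) and NUP210 (0.25, SE 0.07, adjusted p = 0.0257) rose, as log2 fold changes. SEH1L (-0.40, SE 0.09, adjusted p = 0.00534) and the mRNA export protein RAE1 (-0.26, SE 0.09, adjusted p = 0.0361) fell. The count was 1 without SUDHL4, 2 without OCILY1 or without PFEIFFER and 3 without TOLEDO, and 0 without the line as block, where 1 member had an unadjusted p under 0.05. Without the block 0 of all 12986 genes were called, against 3025 with it. Between the solvent sets DMSOP and DMSOV no member and none of 14037 genes was called (0%) by edgeR, and 1 member, NUP35, had an unadjusted p under 0.05. Estimates were lower in DMSOP than in DMSOV for 27 of 30 members (median log2 fold change -0.07, against 0.01 over all genes).

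At 6 h the nucleoporins moved in both directions. Under pracinostat 6 rose and 9 fell, 15 of 30 called, where 40.1% of 13177 genes were called (21.2% higher and 18.9% lower). Vorinostat raised 6 and lowered 10, where 43.9% of the genes were called (23.1% higher, 20.9% lower). Falls were deepest for SEH1L, at log2 fold changes of -0.97 under pracinostat and -1.13 under vorinostat. Rises were smaller and reached 0.52 and 0.53, both for NUP43. Both drugs were set against the same DMSO libraries, so their 6 h values are not separate evidence. Other lists moved at the same time. Of the 6 B-cell genes named above, MS4A1, CD79A, CD79B and PAX5 fell with each drug at 6 h (median of the 6 -0.78 and -0.82). Of the 13 mitochondrially encoded genes, 9 fell with pracinostat (median -0.30) and with vorinostat edgeR called none and gave none an unadjusted p under 0.05 (median -0.10). Their part in the nucleoporin changes was not tested.

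The median log2 fold change of the 30 members at 6 h was -0.06 with pracinostat and -0.13 with vorinostat, against 0.03 and 0.02 over all genes tested. By place in the pore, the inner ring had medians of -0.56 and -0.67 and the basket -0.51 and -0.71. The outer ring had 0.11 and 0.06, and the central channel 0.25 and 0.33. FG nucleoporins gave 2 rises and 3 falls of 10 with pracinostat and 3 and 3 with vorinostat, and the other 20 gave 4 and 6, then 3 and 7. Without the line as block 2 members were called under pracinostat and 6 under vorinostat. Over all 13177 genes that fit called 577 and 1106, against 5289 and 5790 with the block. With library totals in place of the scaling factors, all genes called under pracinostat split into 3556 higher and 1929 lower, against 2794 and 2495. The 6 rises under pracinostat became 3 when SUDHL4 was left out, where 2459 of 13497 genes were called higher, against 2794 of 13177 with every line.

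By 14 days nearly all changes were falls. Under pracinostat 17 members fell and 1 rose, where 22.6% of 14037 genes were called (12.3% higher and 10.2% lower). Under vorinostat 22 fell and none rose (0 of 30), where 37.6% were called (20.4% higher and 17.2% lower). Over the 30 members the median log2 fold change was -0.54 with pracinostat and -0.66 with vorinostat, against 0.07 and 0.12 over all genes. Of the members, 17 fell with both drugs, against separate solvent libraries, as did 9.33% of all genes: NUP188, NUP205, NUP93, NUP155, NUP107, NUP133, NUP85, NUP37, NUP43, SEH1L, AHCTF1, NDC1, NUP58, NUP98, NUP88, NUP153 and NUP50. NUP35, POM121, NUP210, NUP214 and TPR fell with vorinostat and were not called with pracinostat, a difference between drugs that did not pass its own test. AAAS, RAE1, NUP160 and NUP54 were called in none of the comparisons of a drug with its solvent.

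In the scaffold the median log2 fold changes at 14 days were -0.71 and -1.12 for the inner ring and -0.67 and -0.70 for the outer ring, pracinostat first. The FG nucleoporins stood at -0.26 and -0.45, with 4 and 6 of 10 falling, and the other 20 members at -0.65 and -0.86, with 13 and 16 falling. The medians nearest 0 were those of the membrane ring (-0.15) and the cytoplasmic face (-0.16) under pracinostat and of the cytoplasmic face (-0.29) under vorinostat, where the membrane ring stood at -0.58. No difference between these classes was tested. The count under pracinostat was 10 when PFEIFFER was left out, 0 without the line as block (12 members then had an unadjusted p under 0.05), and 8 under vorinostat without the block. Over all genes, 1424 of 13802 were called under pracinostat without PFEIFFER, against 3167 of 14037 with every line. Without the block 8 of 14037 genes were called under pracinostat and 696 under vorinostat, against 3167 and 5274 with it. With library totals all genes called under vorinostat split into 2308 higher and 2931 lower, against 2864 and 2410, while the members gave 24 falls and no rise.

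**Figure D2:**
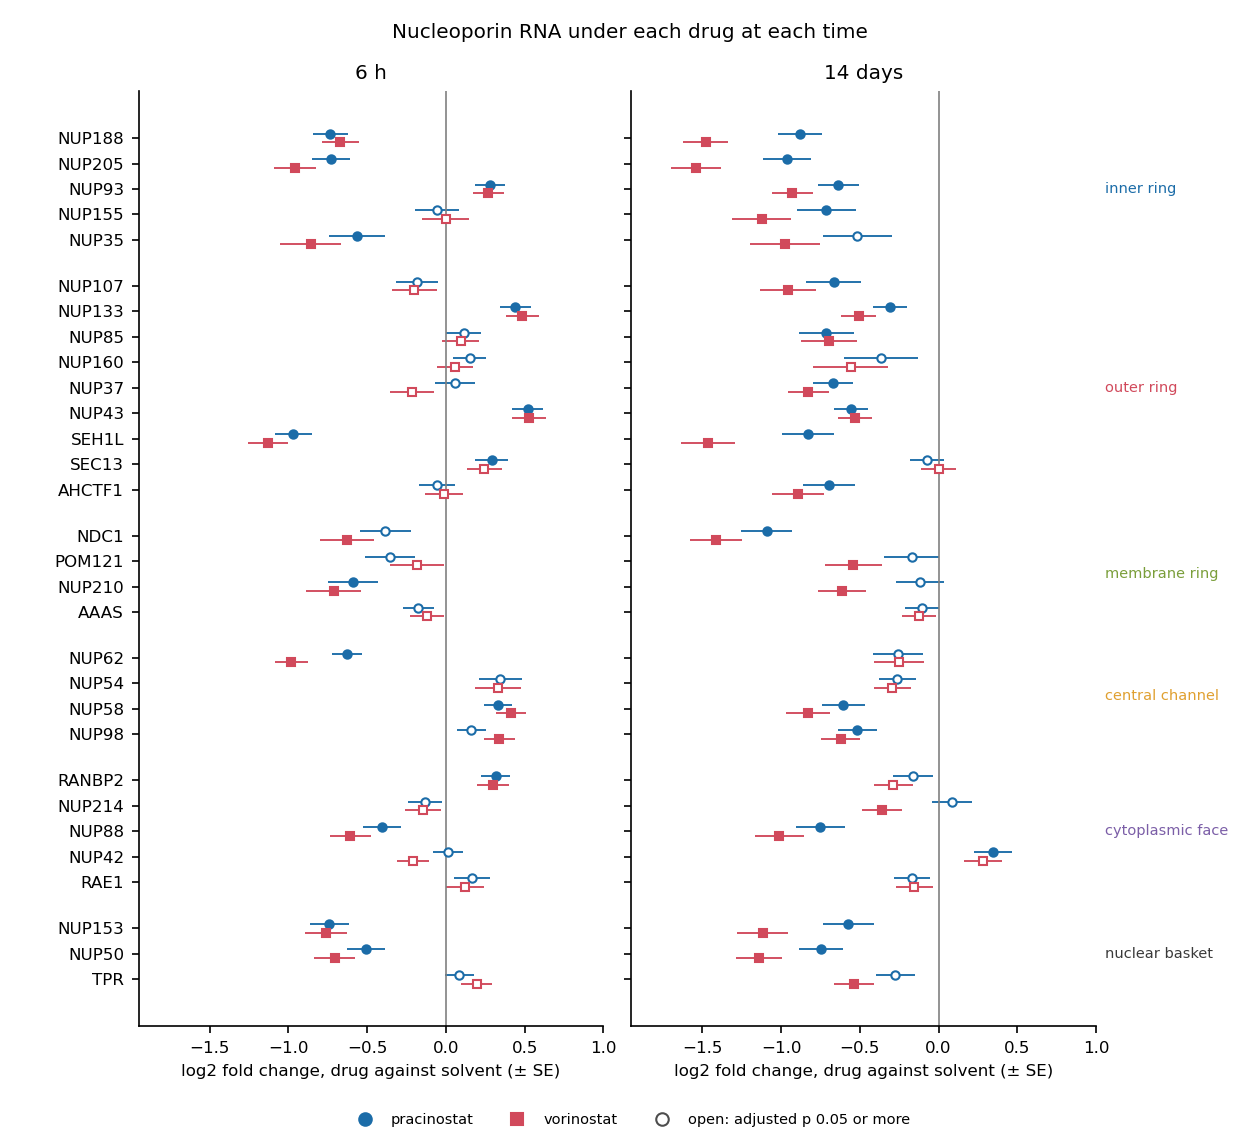
Log2 fold change of each nucleoporin against solvent at 6 h (left) and 14 days (right), with bars of 1 SE. Circles are pracinostat and squares vorinostat; filled symbols passed an adjusted p under 0.05. Symbols lie on both sides of 0 at 6 h and, apart from NUP42 and the pracinostat value of NUP214, at or left of 0 at 14 days.

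Proliferation genes fell at 14 days alongside the nucleoporins. Of 20 genes of G2 and mitosis, 20 fell with each drug, with medians of -1.54 and -1.94 on the log2 scale. Of all genes, 10.2% fell with pracinostat and 17.2% with vorinostat. Their summed level was 993 to 3814 CPM with pracinostat against 4295 to 7168 in DMSOP, and 355 to 2550 with vorinostat against 4457 to 7527 in DMSOV. At 6 h 1 of the 20 rose and none fell with pracinostat, where 21.2% of all genes rose and 18.9% fell. With vorinostat none rose and 4 fell, where 23.1% of all genes rose and 20.9% fell, so these falls were near the share of all genes. The share of counts from the 13 mitochondrially encoded genes was 9.19% to 12.7% with pracinostat at 14 days, against 5.48% to 8.72% in DMSOP, and 8.84% to 13.3% with vorinostat against 5.81% to 9.79% in DMSOV. Of the 6 B-cell genes, 3 rose with each drug at 14 days (median of the 6 0.66 and 0.74), where 12.3% and 20.4% of all genes rose. Myeloid markers also rose at 14 days, though their summed level stayed at or under 35.4 CPM. Their part in the nucleoporin falls was not tested.

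Among the inner-ring genes, NUP188 and NUP205, the largest scaffold proteins of that ring, fell at each time with each drug. NUP188 (ENSG00000095319.13, chromosome 9, 128947699 to 129007096, plus strand, GENCODE 29 on GRCh38) had 153 to 244 CPM (median 204, n = 6) in DMSO at 6 h and 103 to 146 CPM (median 115, n = 6) with pracinostat. With vorinostat it had 107 in OCILY1, 134 in PFEIFFER, 93.9 in SUDHL4, 162 in TOLEDO and 117 in WSUDLCL2 (CPM). Every pracinostat library lay below every DMSO library, while vorinostat in TOLEDO lay within the DMSO range.

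Log2 fold changes of NUP188 at 6 h were -0.73 (SE 0.11, adjusted p = 9.9e-05, lower in 6 of 6 lines) with pracinostat and -0.67 (SE 0.12, adjusted p = 0.000304, lower in 5 of 5 lines) with vorinostat. At 14 days its CPM with pracinostat were 105 in OCILY1, 87.7 in PFEIFFER, 69.7 in SUDHL4, 117 in TOLEDO and 94.7 in WSUDLCL2, against 181 in OCILY1, 178 in PFEIFFER, 150.2 in SUDHL4, 217 in TOLEDO and 156 in WSUDLCL2 in DMSOP. With vorinostat they were 98.7 in OCILY1, 59.8 in PFEIFFER, 50.8 in SUDHL4, 71.1 in TOLEDO and 43.4 in WSUDLCL2, against 169 in OCILY1, 172 in PFEIFFER, 152 in SUDHL4, 228 in TOLEDO and 183 in WSUDLCL2 in DMSOV. Neither pair of groups overlapped, and the fold changes were -0.88 (SE 0.14, adjusted p = 0.00107, lower in 5 of 5 lines) and -1.48 (SE 0.14, adjusted p = 2.92e-05, lower in 5 of 5 lines).

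NUP205 (ENSG00000155561.13, chromosome 7, 135557919 to 135648757, plus strand) had 159.6 to 351 CPM (median 207, n = 6) in DMSO at 6 h and 87.5 to 213 CPM (median 129, n = 6) with pracinostat, groups that overlapped through SUDHL4. With vorinostat it had 115 in OCILY1, 113 in PFEIFFER, 149 in SUDHL4, 132 in TOLEDO and 78.5 in WSUDLCL2 (CPM), all below DMSO. Its log2 fold changes at 6 h were -0.73 (SE 0.12, adjusted p = 0.000251, lower in 6 of 6 lines) and -0.96 (SE 0.13, adjusted p = 3.55e-05, lower in 5 of 5 lines). By 14 days pracinostat libraries held 177 in OCILY1, 96.1 in PFEIFFER, 132 in SUDHL4, 173 in TOLEDO and 115 in WSUDLCL2, against 339.9 in OCILY1, 213 in PFEIFFER, 338 in SUDHL4, 312 in TOLEDO and 178 in WSUDLCL2 in DMSOP. Each of them was below every DMSOP library, the closest pair being OCILY1 with drug and WSUDLCL2 in solvent. Vorinostat libraries held 161 in OCILY1, 83.1 in PFEIFFER, 98.0 in SUDHL4, 72.4 in TOLEDO and 76.2 in WSUDLCL2, against 309.6 in OCILY1, 204 in PFEIFFER, 347 in SUDHL4, 351 in TOLEDO and 231 in WSUDLCL2 in DMSOV, with no overlap and all but OCILY1 under 100 CPM. On the log2 scale the changes were -0.96 (SE 0.15, adjusted p = 0.00113, lower in 5 of 5 lines) and -1.54 (SE 0.16, adjusted p = 3.27e-05, lower in 5 of 5 lines).

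The rest of the inner ring went different ways early and the same way late. NUP93, the linker that anchors NUP188, NUP205 and the central channel, rose at 6 h by 0.28 and 0.27 (adjusted p = 0.0263 and 0.0379) and fell at 14 days by 0.64 and 0.93 (adjusted p = 0.00346 and 0.000121). Its 6 h rises were lost without SUDHL4, SUDHL6 or WSUDLCL2 under pracinostat (adjusted p up to 0.108) and without PFEIFFER, SUDHL4, SUDHL6 or TOLEDO under vorinostat (up to 0.118). NUP155, which joins the ring to the membrane, was not called at 6 h (-0.06 with pracinostat), where the lines went both ways. They ran from -0.60 in TOLEDO to 0.50 in SUDHL4 with pracinostat (3 higher and 3 lower) and from -0.54 in TOLEDO to 0.52 in PFEIFFER with vorinostat. NUP155 fell at 14 days (-0.71, SE 0.19, adjusted p = 0.0132 and -1.12, SE 0.19, adjusted p = 0.000378). The pracinostat call was lost without PFEIFFER or SUDHL4 (adjusted p up to 0.0913). NUP35 fell at 6 h (-0.56, SE 0.18, adjusted p = 0.0185 and -0.86, SE 0.19, adjusted p = 0.00182), the first call being lost without OCILY1, PFEIFFER or TOLEDO (up to 0.0815). At 14 days NUP35 fell with vorinostat (-0.97, SE 0.22, adjusted p = 0.00327) and measured -0.52 (SE 0.22, adjusted p = 0.101) with pracinostat.

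SEH1L, a propeller protein of the Y complex that also serves the GATOR2 complex upstream of mTORC1, had the deepest 6 h fall of any member. The gene (ENSG00000085415.14, chromosome 18, 12947133 to 12987536, plus strand) had 66.1 to 234 CPM (median 142, n = 6) in DMSO and 38.3 to 139 CPM (median 63.4, n = 6) with pracinostat. The groups overlapped, since SUDHL4 with drug (139 CPM) still exceeded PFEIFFER in DMSO (66.1 CPM), yet each line fell against its own control. With vorinostat it had 64.6 in OCILY1, 41.7 in PFEIFFER, 116 in SUDHL4, 61.6 in TOLEDO and 53.9 in WSUDLCL2 (CPM).

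Fold changes of SEH1L at 6 h were -0.97 (SE 0.12, adjusted p = 1.66e-05, lower in 6 of 6 lines) and -1.13 (SE 0.13, adjusted p = 5.43e-06, lower in 5 of 5 lines) on the log2 scale. At 14 days pracinostat libraries held 68.5 in OCILY1, 22.5 in PFEIFFER, 78.4 in SUDHL4, 82.5 in TOLEDO and 53.3 in WSUDLCL2, against 107 in OCILY1, 63.4 in PFEIFFER, 168 in SUDHL4, 119.9 in TOLEDO and 76.5 in WSUDLCL2 in DMSOP, an overlapping pair of groups. Vorinostat libraries held 46.1 in OCILY1, 22.8 in PFEIFFER, 40.0 in SUDHL4, 41.4 in TOLEDO and 46.8 in WSUDLCL2, against 96.0 in OCILY1, 58.0 in PFEIFFER, 170.4 in SUDHL4, 149 in TOLEDO and 106 in WSUDLCL2 in DMSOV. All 5 vorinostat values lay within 22.8 to 46.8 CPM, below the lowest DMSOV library. The 14 day fold changes were -0.83 (SE 0.17, adjusted p = 0.00327, lower in 5 of 5 lines) and -1.46 (SE 0.17, adjusted p = 4.19e-05, lower in 5 of 5 lines).

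NUP43, another propeller protein of the same complex, did the reverse at 6 h. It (ENSG00000120253.12, chromosome 6, 149724315 to 149749665, minus strand) had 80.5 to 112 CPM (median 86.4, n = 6) in DMSO and 117 to 147 CPM (median 126, n = 6) with pracinostat, and every drug library exceeded every DMSO library. With vorinostat it had 139 in OCILY1, 165 in PFEIFFER, 140.4 in SUDHL4, 126 in TOLEDO and 103 in WSUDLCL2 (CPM). WSUDLCL2 was the lowest of these and lay within the DMSO range. Log2 fold changes at 6 h were 0.52 (SE 0.10, adjusted p = 0.00077, higher in 6 of 6 lines) and 0.53 (SE 0.11, adjusted p = 0.000895, higher in 5 of 5 lines).

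By 14 days NUP43 had fallen below solvent. Pracinostat libraries held 96.0 in OCILY1, 65.4 in PFEIFFER, 60.3 in SUDHL4, 66.4 in TOLEDO and 60.0 in WSUDLCL2 (CPM), against 116 in OCILY1, 111 in PFEIFFER, 97.3 in SUDHL4, 92.9 in TOLEDO and 98.7 in WSUDLCL2 in DMSOP, with OCILY1 alone inside the solvent range. Vorinostat libraries held 84.3 in OCILY1, 65.3 in PFEIFFER, 53.0 in SUDHL4, 52.9 in TOLEDO and 77.4 in WSUDLCL2, against 106 in OCILY1, 98.7 in PFEIFFER, 95.8 in SUDHL4, 80.6 in TOLEDO and 103 in WSUDLCL2 in DMSOV. The fitted log2 fold changes were -0.56 (SE 0.11, adjusted p = 0.00292, lower in 5 of 5 lines) and -0.53 (SE 0.11, adjusted p = 0.00158, lower in 5 of 5 lines). An opposite-strand gene, PCMT1, shares 5.03% of the exon bases of NUP43, and whether the counting used strand is unknown here.

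NUP133 (ENSG00000069248.11, chromosome 1, 229440260 to 229508341, minus strand), the membrane-proximal end of the Y complex, followed the pattern of NUP43. DMSO libraries at 6 h held 76.3 to 173 CPM (median 85.6, n = 6), and pracinostat libraries 101 to 211 CPM (median 119.6, n = 6). TOLEDO was the highest line in both groups, and only TOLEDO with drug stood above the DMSO range. Vorinostat libraries held 143 in OCILY1, 131 in PFEIFFER, 128 in SUDHL4, 189 in TOLEDO and 109 in WSUDLCL2 (CPM). The 6 h changes were 0.44 (SE 0.10, adjusted p = 0.00221, higher in 6 of 6 lines) and 0.49 (SE 0.11, adjusted p = 0.00147, higher in 5 of 5 lines).

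At 14 days NUP133 held 76.2 in OCILY1, 65.0 in PFEIFFER, 60.6 in SUDHL4, 132 in TOLEDO and 62.5 in WSUDLCL2 (CPM) with pracinostat, against 90.4 in OCILY1, 92.8 in PFEIFFER, 78.5 in SUDHL4, 168 in TOLEDO and 69.2 in WSUDLCL2 in DMSOP. With vorinostat it held 64.3 in OCILY1, 59.5 in PFEIFFER, 49.7 in SUDHL4, 99.8 in TOLEDO and 69.4 in WSUDLCL2, against 82.0 in OCILY1, 87.1 in PFEIFFER, 83.6 in SUDHL4, 184 in TOLEDO and 77.5 in WSUDLCL2 in DMSOV. TOLEDO again stood above the rest, and each line was lower with drug. These gave log2 fold changes of -0.31 (SE 0.11, adjusted p = 0.0485, lower in 5 of 5 lines) and -0.51 (SE 0.11, adjusted p = 0.00195, lower in 5 of 5 lines). The pracinostat call was lost without OCILY1, PFEIFFER, SUDHL4 or TOLEDO (adjusted p up to 0.223) and with other size factors, DESeq2 or no filter (0.0519 to 0.0820).

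Of the other outer-ring genes, 4 were not called at 6 h, with log2 fold changes between -0.21 and 0.11, and fell at 14 days with each drug. NUP107, a stem protein of the Y complex, fell by 0.67 and 0.95 (adjusted p = 0.0134 and 0.000714), AHCTF1 by 0.70 and 0.89 (0.00805 and 0.00079), NUP85, which carries SEH1L, by 0.71 and 0.70 (0.0097 and 0.00582), and NUP37 by 0.67 and 0.83 (0.00284 and 0.000257). Under pracinostat the calls of NUP107, AHCTF1 and NUP85 were lost without PFEIFFER, that of NUP107 also without SUDHL4 (adjusted p up to 0.0956). SEC13, shared with COPII vesicle coats, rose at 6 h with pracinostat (0.29, SE 0.10, adjusted p = 0.0354), measured 0.24 (SE 0.11, adjusted p = 0.0841) with vorinostat, and at 14 days stood at -0.08 (SE 0.11, adjusted p = 0.654) with pracinostat. Its 6 h call was lost without OCILY1, SUDHL4, SUDHL6 or WSUDLCL2 (adjusted p up to 0.128). NUP160 measured -0.37 (SE 0.23, adjusted p = 0.265) and -0.56 (SE 0.24, adjusted p = 0.0733) at 14 days, and the latter reached an adjusted p of 0.0438 with limma on the deposited log2 values.

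**Figure D3:**
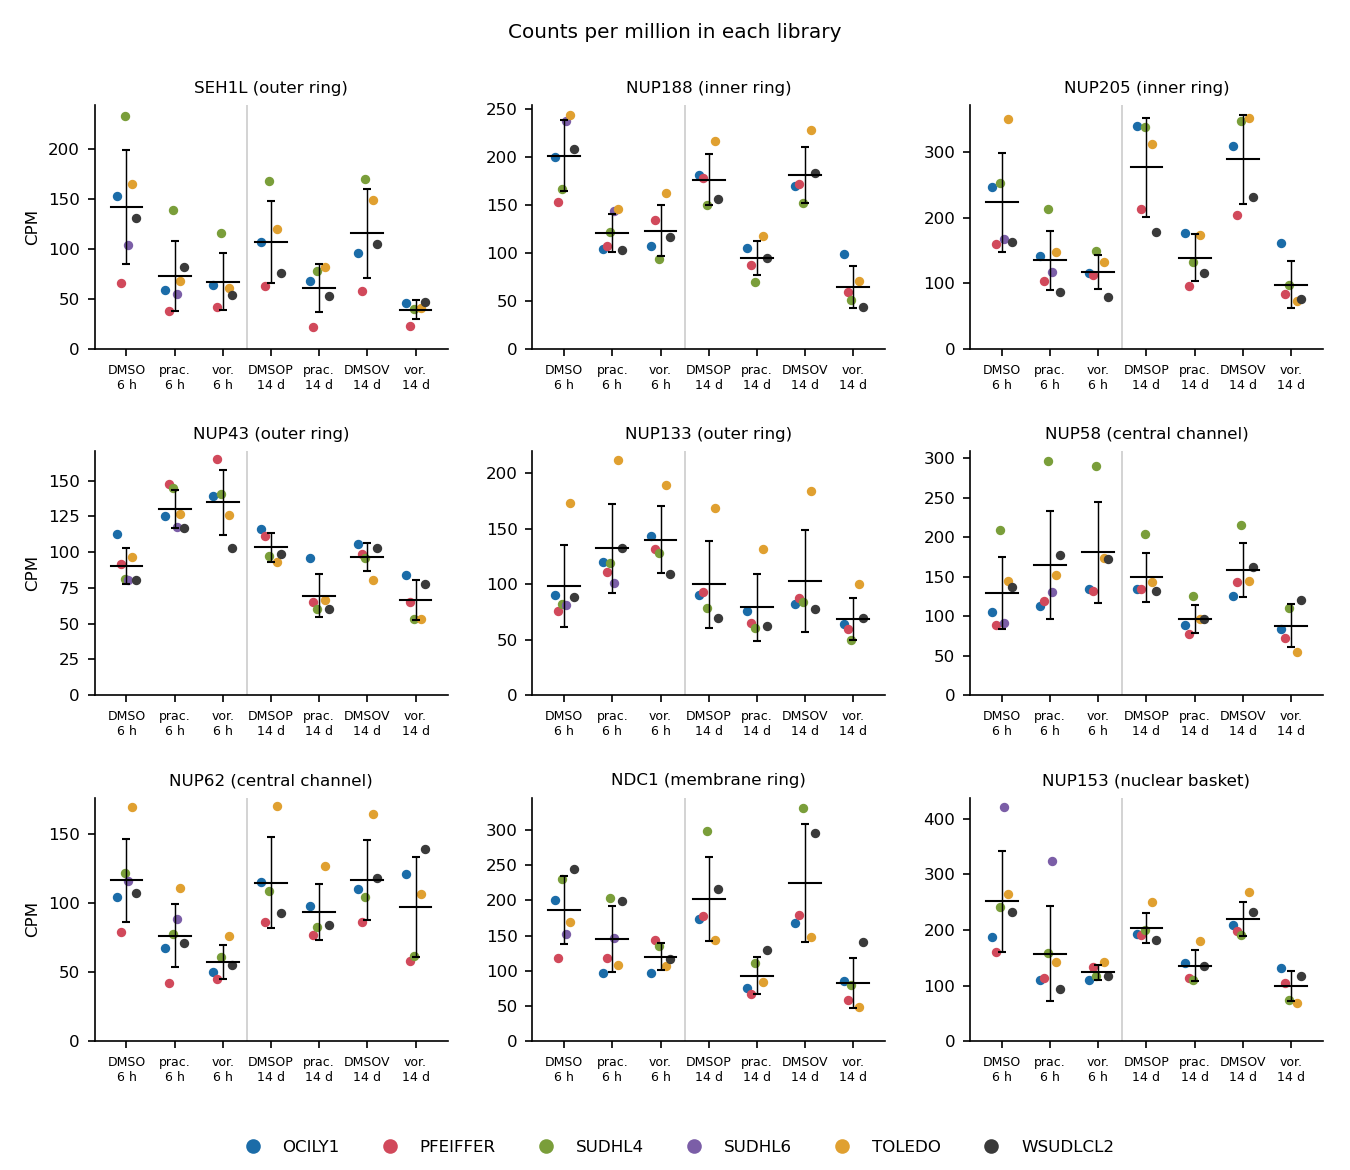
CPM of 9 nucleoporins in each library, by group, with 1 colour per cell line. Horizontal bars are group means and vertical bars 1 SD over lines (5 or 6 libraries). SEH1L, NUP188 and NUP205 are lower with drug at both times, NUP43, NUP133 and NUP58 are higher at 6 h and lower at 14 days, and NUP62 is lower at 6 h.

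In the membrane ring the largest change in any drug comparison was that of NDC1, a protein with several membrane spans that pore insertion depends on. NDC1 (ENSG00000058804.11, chromosome 1, 53765460 to 53838860, minus strand) had 119 to 244 CPM (median 185, n = 6) in DMSO at 6 h, 96.6 to 204 CPM (median 132, n = 6) with pracinostat, and with vorinostat 96.6 in OCILY1, 143 in PFEIFFER, 135 in SUDHL4, 107 in TOLEDO and 117 in WSUDLCL2. The drug groups overlapped DMSO, and PFEIFFER with vorinostat was above its own control. Log2 fold changes at 6 h were -0.38 (SE 0.16, adjusted p = 0.0695, lower in 6 of 6 lines), not called, and -0.63 (SE 0.17, adjusted p = 0.00814, lower in 4 of 5 lines).

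The 14 day fall of NDC1 was among the deepest of any member. Pracinostat libraries held 75.4 in OCILY1, 66.9 in PFEIFFER, 110.4 in SUDHL4, 84.4 in TOLEDO and 129 in WSUDLCL2 (CPM), against 174 in OCILY1, 178 in PFEIFFER, 298 in SUDHL4, 143 in TOLEDO and 216 in WSUDLCL2 in DMSOP. Vorinostat libraries held 85.7 in OCILY1, 58.9 in PFEIFFER, 79.7 in SUDHL4, 48.7 in TOLEDO and 140.4 in WSUDLCL2, against 168 in OCILY1, 179 in PFEIFFER, 332 in SUDHL4, 148 in TOLEDO and 296 in WSUDLCL2 in DMSOV. Neither pair of groups overlapped, and TOLEDO with vorinostat was the lowest library of all. Log2 fold changes were -1.09 (SE 0.16, adjusted p = 0.00078, lower in 5 of 5 lines) and -1.41 (SE 0.16, adjusted p = 4.09e-05, lower in 5 of 5 lines).

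NUP210, the most abundant member per length, fell at 6 h (-0.59, SE 0.16, adjusted p = 0.00835 and -0.71, SE 0.17, adjusted p = 0.00332) and at 14 days with vorinostat (-0.61, SE 0.15, adjusted p = 0.00559), and measured -0.12 (SE 0.15, adjusted p = 0.609) with pracinostat. POM121, a membrane nucleoporin needed for pore insertion in interphase, fell with vorinostat at 14 days (-0.54, SE 0.18, adjusted p = 0.0257). That call was lost without PFEIFFER, TOLEDO or WSUDLCL2 (adjusted p up to 0.111). POM121 has a near-identical copy, POM121C, and shares 18.8% of its exon bases with the opposite-strand NSUN5P2, so its counts are uncertain. AAAS, the protein ALADIN that NDC1 holds at the pore, ranged from -0.17 to -0.11 over the drug comparisons and was called in none.

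In the central channel NUP62 and its partners NUP58 and NUP54, which form 1 FG subcomplex, moved apart at 6 h. NUP62 (ENSG00000213024.9, chromosome 19, 49906825 to 49929763, minus strand) had 79.1 to 169.8 CPM (median 112, n = 6) in DMSO and 42.1 to 111 CPM (median 74.5, n = 6) with pracinostat. The latter was lower in each line, with overlap between lines. Vorinostat libraries held 50.02 in OCILY1, 44.9 in PFEIFFER, 61.1 in SUDHL4, 76.1 in TOLEDO and 55.3 in WSUDLCL2 (CPM), all below the lowest DMSO library. On the log2 scale the changes were -0.63 (SE 0.10, adjusted p = 0.000111, lower in 6 of 6 lines) and -0.98 (SE 0.10, adjusted p = 3.45e-06, lower in 5 of 5 lines).

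At 14 days NUP62 was not called. With pracinostat it held 97.8 in OCILY1, 77.0 in PFEIFFER, 82.9 in SUDHL4, 127 in TOLEDO and 84.6 in WSUDLCL2 (CPM), against 116 in OCILY1, 86.8 in PFEIFFER, 109 in SUDHL4, 170.3 in TOLEDO and 93.3 in WSUDLCL2 in DMSOP. With vorinostat it held 121 in OCILY1, 58.0 in PFEIFFER, 62.0 in SUDHL4, 107 in TOLEDO and 139 in WSUDLCL2, against 111 in OCILY1, 86.4 in PFEIFFER, 105 in SUDHL4, 165 in TOLEDO and 118 in WSUDLCL2 in DMSOV, higher than the control in OCILY1 and WSUDLCL2 and lower in PFEIFFER, SUDHL4 and TOLEDO. The fitted log2 fold changes were -0.26 (SE 0.16, adjusted p = 0.25) and -0.25 (SE 0.16, adjusted p = 0.224). NUP62 shares 5.58% of its exon bases with IL4I1 on the same strand and 10.4% with ATF5 on the opposite strand, so its count over these bases is uncertain.

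NUP58 (ENSG00000139496.14, chromosome 13, 25301524 to 25349800, plus strand) rose while NUP62 fell. DMSO libraries at 6 h held 88.3 to 209 CPM (median 121, n = 6) and pracinostat libraries 113 to 296 CPM (median 141, n = 6), with SUDHL4 the highest line in each. Vorinostat libraries held 135 in OCILY1, 132 in PFEIFFER, 289.9 in SUDHL4, 174 in TOLEDO and 173 in WSUDLCL2. Groups overlapped, yet each line was higher with drug, and the changes were 0.33 (SE 0.09, adjusted p = 0.00784, higher in 6 of 6 lines) and 0.41 (SE 0.09, adjusted p = 0.00228, higher in 5 of 5 lines). At 14 days pracinostat libraries held 88.3 in OCILY1, 77.2 in PFEIFFER, 125 in SUDHL4, 96.6 in TOLEDO and 95.8 in WSUDLCL2, against 134 in OCILY1, 134 in PFEIFFER, 204 in SUDHL4, 143 in TOLEDO and 132 in WSUDLCL2 in DMSOP. Vorinostat libraries held 83.3 in OCILY1, 72.5 in PFEIFFER, 111 in SUDHL4, 54.0 in TOLEDO and 119.9 in WSUDLCL2, against 126 in OCILY1, 143 in PFEIFFER, 215 in SUDHL4, 144 in TOLEDO and 162 in WSUDLCL2 in DMSOV. Drug and solvent did not overlap at 14 days with either drug, and the fold changes were -0.60 (SE 0.14, adjusted p = 0.00619, lower in 5 of 5 lines) and -0.83 (SE 0.14, adjusted p = 0.000345, lower in 5 of 5 lines).

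NUP54 measured 0.35 (SE 0.14, adjusted p = 0.058) and 0.33 (SE 0.15, adjusted p = 0.0816) at 6 h and -0.26 (SE 0.12, adjusted p = 0.112) and -0.29 (SE 0.12, adjusted p = 0.0593) at 14 days, so it passed in none, though with library totals it passed at 6 h with each drug (adjusted p = 0.0113 and 0.0216) and at 14 days with vorinostat (0.0210). NUP98, an FG protein of the permeability barrier also known from leukaemia fusions, rose at 6 h with vorinostat (0.34, SE 0.10, adjusted p = 0.0106), measured 0.16 (SE 0.09, adjusted p = 0.182) with pracinostat, and fell at 14 days (-0.51, SE 0.12, adjusted p = 0.00882 and -0.62, SE 0.12, adjusted p = 0.00125). Without PFEIFFER its 14 day pracinostat call was lost (adjusted p = 0.05004).

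On the cytoplasmic face NUP88, the partner of NUP214, fell at each time. NUP88 (ENSG00000108559.10, chromosome 17, 5360963 to 5420160, minus strand) had 57.2 to 139.6 CPM (median 82.8, n = 6) in DMSO at 6 h and 32.8 to 99.8 CPM (median 70.5, n = 6) with pracinostat. Vorinostat libraries held 87.0 in OCILY1, 51.7 in PFEIFFER, 56.0 in SUDHL4, 29.8 in TOLEDO and 54.5 in WSUDLCL2. OCILY1 was the highest line in DMSO and with vorinostat, TOLEDO the lowest with each drug, and the groups overlapped. These gave log2 fold changes of -0.41 (SE 0.12, adjusted p = 0.0151, lower in 6 of 6 lines) and -0.61 (SE 0.13, adjusted p = 0.00151, lower in 5 of 5 lines), the first being lost without OCILY1 or TOLEDO (adjusted p up to 0.0819).

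At 14 days NUP88 held 80.9 in OCILY1, 33.6 in PFEIFFER, 41.7 in SUDHL4, 41.2 in TOLEDO and 83.3 in WSUDLCL2 (CPM) with pracinostat, against 145 in OCILY1, 77.4 in PFEIFFER, 90.1 in SUDHL4, 63.1 in TOLEDO and 91.3 in WSUDLCL2 in DMSOP. Vorinostat libraries held 97.2 in OCILY1, 30.0 in PFEIFFER, 35.0 in SUDHL4, 35.3 in TOLEDO and 48.0 in WSUDLCL2, against 140.0 in OCILY1, 77.5 in PFEIFFER, 87.3 in SUDHL4, 61.7 in TOLEDO and 115 in WSUDLCL2 in DMSOV. Every line was lower with drug, although the groups overlapped because OCILY1 and, with pracinostat, WSUDLCL2 kept more than 80 CPM. Changes were -0.75 (SE 0.15, adjusted p = 0.00386, lower in 5 of 5 lines) and -1.01 (SE 0.16, adjusted p = 0.000221, lower in 5 of 5 lines). RPAIN and RABEP1 on the opposite strand share 9.82% and 8.84% of the exon bases of NUP88.

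NUP42, which docks the mRNA export factor GLE1 at the pore, was the one member that rose at 14 days. NUP42 (ENSG00000136243.15, chromosome 7, 23181827 to 23201011, plus strand) held 93.7 in OCILY1, 57.9 in PFEIFFER, 85.1 in SUDHL4, 86.2 in TOLEDO and 71.0 in WSUDLCL2 (CPM) with pracinostat, against 74.7 in OCILY1, 48.5 in PFEIFFER, 64.8 in SUDHL4, 69.0 in TOLEDO and 57.0 in WSUDLCL2 in DMSOP. Each line was higher with drug and the groups overlapped. Its change was 0.35 (SE 0.12, adjusted p = 0.048, higher in 5 of 5 lines), and 0.28 (SE 0.12, adjusted p = 0.0773, higher in 4 of 5 lines) with vorinostat, which was not called. The pracinostat call sat at the threshold: it was lost when any 1 of the 5 lines was left out (adjusted p up to 0.146), with library totals (0.0887), limma (0.0610) or no filter (0.0614). With vorinostat it passed with DESeq2 (0.0328). At 6 h NUP42 measured 0.01 and -0.21.

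RANBP2, the filament protein with SUMO ligase activity, rose at 6 h (0.32, SE 0.09, adjusted p = 0.0134 and 0.30, SE 0.10, adjusted p = 0.0237) and measured -0.16 (SE 0.13, adjusted p = 0.365) and -0.29 (SE 0.13, adjusted p = 0.0835) at 14 days. Its 6 h calls were lost without OCILY1 under each drug, without SUDHL4 under pracinostat and without PFEIFFER under vorinostat (adjusted p up to 0.0966). Genes of the RGPD family are near copies of RANBP2, so its counts are uncertain. NUP214 fell with vorinostat at 14 days (-0.36, SE 0.13, adjusted p = 0.0385), a call lost without PFEIFFER, SUDHL4, TOLEDO or WSUDLCL2 (adjusted p up to 0.175), and measured 0.08 (SE 0.13, adjusted p = 0.668) with pracinostat. RAE1 stayed between -0.17 and 0.17 in all 4 drug comparisons and was not called.

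The nuclear basket fell as a whole by 14 days with vorinostat. NUP153 (ENSG00000124789.10, chromosome 6, 17615035 to 17706834, minus strand), the FG protein that ties the basket to the ring, had 160.2 to 421 CPM (median 237, n = 6) in DMSO at 6 h and 94.0 to 325 CPM (median 128, n = 6) with pracinostat. SUDHL6 was the highest line in each group, and they overlapped through it. Vorinostat libraries held 111 in OCILY1, 133 in PFEIFFER, 118 in SUDHL4, 143 in TOLEDO and 117 in WSUDLCL2 (CPM), all below DMSO. Log2 fold changes were -0.74 (SE 0.12, adjusted p = 0.000241, lower in 6 of 6 lines) and -0.76 (SE 0.13, adjusted p = 0.00026, lower in 5 of 5 lines).

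At 14 days NUP153 held 141 in OCILY1, 113 in PFEIFFER, 110.0 in SUDHL4, 180.4 in TOLEDO and 135 in WSUDLCL2 (CPM) with pracinostat, against 193 in OCILY1, 190.4 in PFEIFFER, 200.4 in SUDHL4, 251 in TOLEDO and 182 in WSUDLCL2 in DMSOP, and with vorinostat 131 in OCILY1, 105 in PFEIFFER, 74.2 in SUDHL4, 69.3 in TOLEDO and 117 in WSUDLCL2, against 209.7 in OCILY1, 198 in PFEIFFER, 192 in SUDHL4, 267 in TOLEDO and 232 in WSUDLCL2 in DMSOV. No drug library reached its solvent group, and the lowest values were those of TOLEDO and SUDHL4 with vorinostat. Changes were -0.57 (SE 0.16, adjusted p = 0.0182, lower in 5 of 5 lines) and -1.12 (SE 0.16, adjusted p = 0.00015, lower in 5 of 5 lines), the first being lost without PFEIFFER or SUDHL4 (adjusted p up to 0.0981). An opposite-strand gene, AL138724.1, shares 9.25% of its exon bases.

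NUP50 (ENSG00000093000.17, chromosome 22, 45163841 to 45188015, plus strand), a basket protein that releases cargo from importin alpha, had 138 to 197 CPM (median 181, n = 6) in DMSO at 6 h and 104 to 138 CPM (median 124, n = 6) with pracinostat. Vorinostat libraries held 109.5 in OCILY1, 146 in PFEIFFER, 107 in SUDHL4, 109 in TOLEDO and 81.8 in WSUDLCL2 (CPM). PFEIFFER alone, with each drug, lay within the DMSO range. Changes were -0.51 (SE 0.12, adjusted p = 0.00322, lower in 6 of 6 lines) and -0.71 (SE 0.13, adjusted p = 0.000379, lower in 5 of 5 lines). At 14 days pracinostat libraries held 134 in OCILY1, 109 in PFEIFFER, 83.6 in SUDHL4, 119 in TOLEDO and 99.4 in WSUDLCL2, against 181 in OCILY1, 198 in PFEIFFER, 187 in SUDHL4, 205 in TOLEDO and 149 in WSUDLCL2 in DMSOP. Vorinostat libraries held 117 in OCILY1, 106 in PFEIFFER, 58.4 in SUDHL4, 65.1 in TOLEDO and 85.0 in WSUDLCL2, against 189 in OCILY1, 198 in PFEIFFER, 175 in SUDHL4, 214 in TOLEDO and 177 in WSUDLCL2 in DMSOV. Neither pair overlapped, and the changes were -0.75 (SE 0.14, adjusted p = 0.00264, lower in 5 of 5 lines) and -1.14 (SE 0.14, adjusted p = 6.21e-05, lower in 5 of 5 lines). TPR measured 0.09 (SE 0.09, adjusted p = 0.49) and 0.19 (SE 0.10, adjusted p = 0.129) at 6 h, -0.28 (SE 0.12, adjusted p = 0.117) with pracinostat at 14 days, and fell with vorinostat (-0.54, SE 0.13, adjusted p = 0.00357).

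Whether a drug's effect differed between the times was tested directly, as the 14 day log2 fold change minus the 6 h one in 1 model of all 37 libraries. With pracinostat 11 members had a lower effect at 14 days and none a higher one, where 19.4% of 15420 genes were called (9.53% higher, 9.83% lower). With vorinostat 16 were lower and 2 higher, where 23.4% were called (11.2% higher, 12.2% lower). The members' median difference was -0.39 and -0.63, against 0.06 and 0.09 over all genes. With pracinostat the largest differences were those of NUP43 (-1.10, SE 0.15, adjusted p = 2.14e-05), NUP58 (-0.96, SE 0.16, adjusted p = 0.000228) and NUP93 (-0.94, SE 0.16, adjusted p = 0.000229). With vorinostat they were those of NUP58 (-1.27, SE 0.17, adjusted p = 9.74e-06), NUP93 (-1.23, SE 0.17, adjusted p = 1.16e-05) and NUP155 (-1.15, SE 0.26, adjusted p = 0.00174), followed by NUP43 (-1.09, SE 0.15, adjusted p = 1.73e-05).

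The solvent libraries of 6 h, shared by both drugs, are not those of 14 days, so calls at the 2 times can be set side by side for each drug. With pracinostat 6 members fell at both times (NUP188, NUP205, SEH1L, NUP88, NUP153 and NUP50), 4 rose and then fell (NUP93, NUP133, NUP43 and NUP58), and 7 that were not called at 6 h fell at 14 days. Of 12967 genes tested at both times, 3.73% fell at both, 1.16% rose and then fell, and 6.14% fell at 14 days alone. With vorinostat 9 fell at both times (NUP188, NUP205, NUP35, SEH1L, NDC1, NUP210, NUP88, NUP153 and NUP50), 5 rose and then fell (NUP93, NUP133, NUP43, NUP58 and NUP98), and 8 that were not called at 6 h fell at 14 days, where 7.97%, 1.82% and 8.73% of all genes did so. No member rose at both times with either drug, as 4.86% and 8.33% of all genes did. NUP62 under vorinostat went the other way: its effect was higher at 14 days (0.70, SE 0.20, adjusted p = 0.0113), as was that of NUP42 (0.45, SE 0.15, adjusted p = 0.0287).

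The time difference counts moved with the lines. Under pracinostat 5 were called without SUDHL4 and 7 without PFEIFFER, and under vorinostat 11 without either of them. Over all genes the pracinostat counts were 1599 of 15565 without SUDHL4 and 2129 of 14559 without PFEIFFER, against 2986 of 15420. Those of vorinostat were 2574 of 15565 and 2576 of 14559, against 3605 of 15420. The rise of NUP62 was lost without OCILY1 or WSUDLCL2 (adjusted p up to 0.0957) and with library totals (0.0618), and that of NUP42 without OCILY1, PFEIFFER, SUDHL4 or TOLEDO (up to 0.226) and with library totals (0.151) or no filter (0.0561), so library totals gave 21 falls and no rise in place of 16 and 2. Library totals also changed the split over all genes, to 1028 higher and 2316 lower for pracinostat (1470 and 1516 before) and 1256 and 2573 for vorinostat (1722 and 1883 before). Without the line and time block 1 member was called for each drug, and over all 15420 genes 75 were called for pracinostat and 252 for vorinostat.

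**Figure D4:**
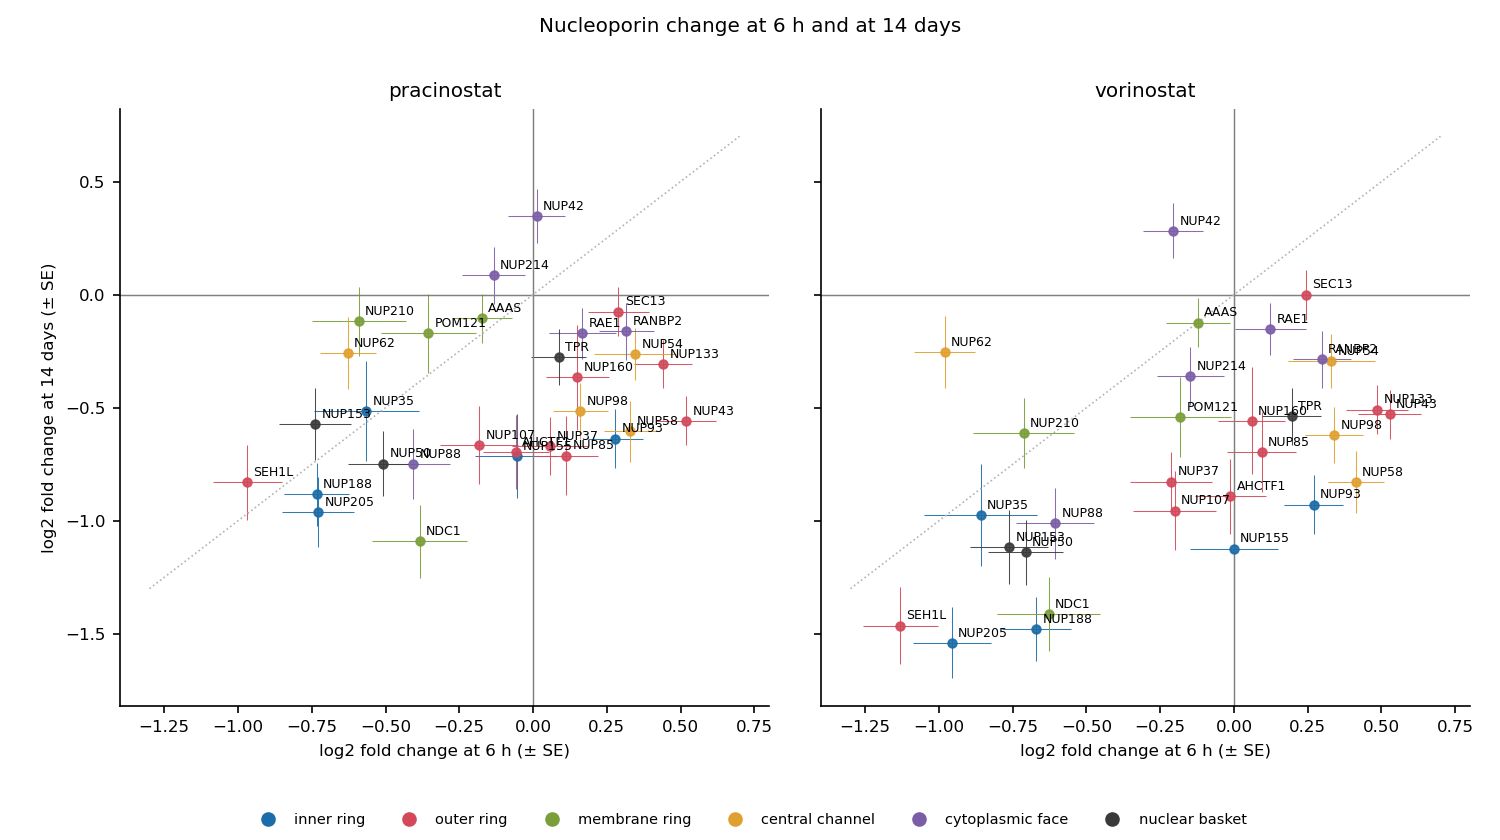
Log2 fold change of each nucleoporin at 14 days against that at 6 h, for pracinostat (left) and vorinostat (right), with bars of 1 SE and colours by place in the pore. The dotted line marks equal change. Most points lie below it, with NUP43, NUP58 and NUP93 right of 0 and below 0, and NUP62 under vorinostat lies above it.

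Both drugs carry a hydroxamic acid group that binds the zinc of the enzyme. Their effects on the 30 members were compared in 1 pair at each time, with p-values adjusted over all genes, but doses are unknown, so the values stand side by side. At 6 h no member was called, where 0.0152% of 13177 genes were (2 genes, 0.00759% in each direction), and 2 members had an unadjusted p under 0.05 by edgeR and by DESeq2. At 14 days, each drug relative to its own solvent, no member and no gene was called (0% of 14037) by edgeR, DESeq2 or limma, and 6 members had an unadjusted p under 0.05 by each tool. The estimate was lower with vorinostat in 25 of 30 members at 14 days, and the median difference was 0.24 (pracinostat minus vorinostat), against -0.00 over all genes. This difference takes in the solvent sets, whose estimates were lower in DMSOP for 27 of 30 members, which adds to it in the same direction. Comparing the drug libraries directly, without their solvents, gave a median of 0.13, no member called and 8 with an unadjusted p under 0.05. Estimates were 0.63 for SEH1L (95% interval 0.13 to 1.13), 0.60 for NUP188 (0.18 to 1.01), 0.58 for NUP205 (0.12 to 1.04) and -0.03 for NUP43 (-0.35 to 0.30). The intervals of SEH1L, NUP188 and NUP205 lay above 0 and that of NUP43 spanned it, and none of these differences passed adjustment, so the drugs are shown neither to differ nor to act alike in these genes. Left without TOLEDO, the median difference was 0.11 and 1 member had an unadjusted p under 0.05.

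Cell lines shared the 14 day direction and differed in its depth. With pracinostat 27 or 28 of the 30 members were below their control in each of the 5 lines, with median log2 differences from -0.26 in OCILY1 to -0.69 in PFEIFFER. With vorinostat 24 of 30 were lower in OCILY1 (median -0.34) and 27 in TOLEDO (median -1.22), with PFEIFFER (-0.72), SUDHL4 (-0.90) and WSUDLCL2 (-0.67) between. Over all genes tested the medians of these lines lay between -0.01 and 0.06. Deepest in single lines were NUP205 in TOLEDO (-2.27), SEH1L in SUDHL4 (-2.08) and NUP188 in WSUDLCL2 (-2.07), all with vorinostat. NUP42 was the highest member in every line with pracinostat.

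Under vorinostat the proliferation genes ranked the lines only partly as the nucleoporins did, with SUDHL4 and TOLEDO exchanged at one end and OCILY1 and WSUDLCL2 at the other. Their median was -3.92 in SUDHL4, -2.53 in TOLEDO, -2.35 in PFEIFFER, -1.07 in OCILY1 and -0.82 in WSUDLCL2. With pracinostat their medians were -2.26 in SUDHL4, -1.74 in PFEIFFER, -1.56 in WSUDLCL2, -1.25 in OCILY1 and -1.11 in TOLEDO. The nucleoporin medians with pracinostat were -0.64 in SUDHL4, -0.69 in PFEIFFER, -0.41 in WSUDLCL2, -0.26 in OCILY1 and -0.49 in TOLEDO. TOLEDO thus had the smallest fall of the proliferation genes, while OCILY1 had that of the nucleoporins. At 6 h lines differed in sign: the nucleoporin median with pracinostat was 0.13 in SUDHL4 and in SUDHL6 and -0.30 in TOLEDO, where the proliferation genes had medians of 0.90, 0.55 and -0.63. In OCILY1 the medians were -0.16 for the nucleoporins and -0.29 for the proliferation genes. They had opposite signs in PFEIFFER (-0.03 and 0.11) and in WSUDLCL2 (-0.03 and 0.39), nucleoporins first. Each line gives 1 library per group, so differences between lines in the drug effect have no test.

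**Figure D5:**
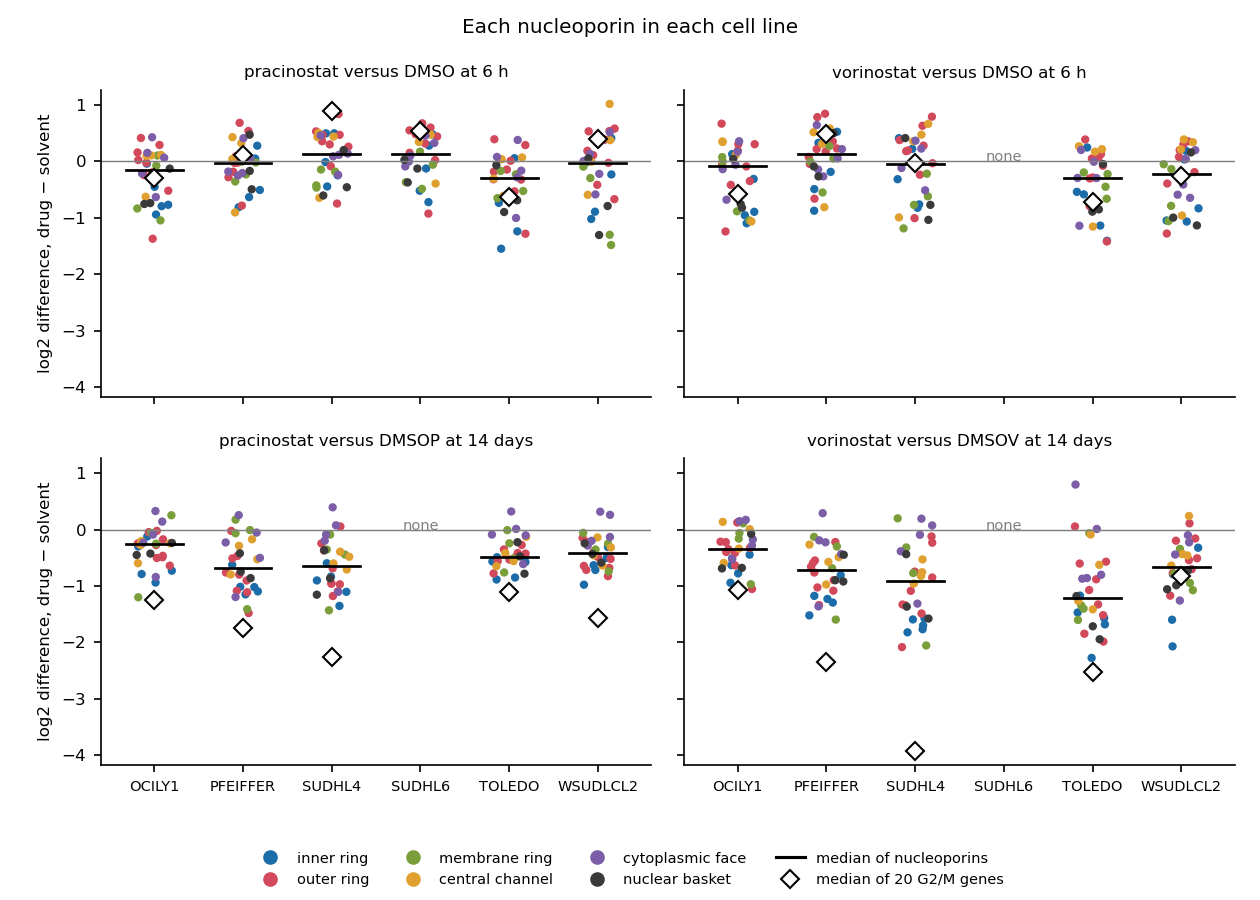
Log2 difference between drug and solvent of each nucleoporin (points, coloured by place in the pore) in each cell line, for the 4 drug comparisons. Bars are the median of the 30 members and diamonds the median of 20 genes of G2 and mitosis. At 14 days the bars of all 5 lines are below 0 and the diamonds lie below the bars, closest to them in WSUDLCL2 with vorinostat.

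Carriers that move through the pore mostly fell or were not called. Of 23 importins and exportins tested, 1 rose and 11 fell with pracinostat at 6 h, 1 and 12 with vorinostat at 6 h, 0 and 13 with pracinostat at 14 days and 0 and 18 with vorinostat at 14 days. Of all genes, 18.9%, 20.9%, 10.2% and 17.2% fell in these comparisons. Median log2 fold changes were -0.28, -0.31, -0.46 and -0.86 in that order, against 0.03, 0.02, 0.07 and 0.12 over all genes. KPNB1, the importin beta that carries most nuclear proteins, fell at 6 h (-1.002, SE 0.11, adjusted p = 1.06e-05 and -1.17, SE 0.12, adjusted p = 3.68e-06). XPOT, the tRNA exporter, fell at 6 h (-0.84, SE 0.11, adjusted p = 3.54e-05 and -1.03, SE 0.12, adjusted p = 7.3e-06) and at 14 days (-0.94, SE 0.15, adjusted p = 0.00125 and -1.29, SE 0.15, adjusted p = 5.13e-05). CSE1L, which returns importin alpha to the cytoplasm, fell at 14 days (-0.97, SE 0.20, adjusted p = 0.00353 and -1.24, SE 0.20, adjusted p = 0.000291). KPNA2, an importin alpha of dividing cells, measured 0.28 (SE 0.13, adjusted p = 0.103) at 6 h and fell at 14 days (-1.03, SE 0.23, adjusted p = 0.00649 with pracinostat). IPO13 was the importin that rose at 6 h (0.31, SE 0.10, adjusted p = 0.025 and 0.46, SE 0.11, adjusted p = 0.00254).

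Genes of the Ran cycle, which gives transport its direction, gave no rise in any drug comparison. Of 6 tested, 4 fell at 6 h and 5 at 14 days with each drug, where 18.9% and 20.9% of all genes fell at 6 h and 10.2% and 17.2% at 14 days (pracinostat first). RCC1, the chromatin-bound exchange factor that loads Ran with GTP, moved most, by -0.93 (SE 0.12, adjusted p = 3.01e-05) and -1.25 (SE 0.13, adjusted p = 3.25e-06) at 6 h and -1.32 (SE 0.19, adjusted p = 0.000764) and -1.76 (SE 0.20, adjusted p = 3.59e-05) at 14 days. RAN itself fell at 6 h (-0.52, SE 0.13, adjusted p = 0.0046 and -0.70, SE 0.14, adjusted p = 0.000784), and at 14 days RANBP1 fell by 0.79 and 0.72 (adjusted p = 0.0234 and 0.0236).

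Proteins that work at the pore without building it were also counted. Of 16, 2 rose and 2 fell with pracinostat at 6 h, 3 and 3 with vorinostat at 6 h, and at 14 days 3 and 6 fell and none rose. The 4 and 6 called at 6 h are smaller shares than the 40.1% and 43.9% of all genes called. At 14 days 10.2% and 17.2% of all genes fell. NXF1, the mRNA export receptor, rose at 6 h by 0.35 (SE 0.11, adjusted p = 0.0189) and 1.14 (SE 0.12, adjusted p = 3.07e-06), and its partner NXT1 fell (-0.67, SE 0.16, adjusted p = 0.00312 and -0.71, SE 0.17, adjusted p = 0.00256). POM121C, the near copy of POM121, fell with pracinostat at 6 h (-0.35, SE 0.10, adjusted p = 0.00915), and the SUMO protease SENP1 with vorinostat (-0.54, SE 0.12, adjusted p = 0.00211). ENY2, a subunit of the export complex TREX-2, rose at 6 h (0.38, SE 0.11, adjusted p = 0.0125 and 0.50, SE 0.12, adjusted p = 0.00287). At 14 days MAD2L1, the checkpoint protein that docks at the basket, fell (-1.54, SE 0.26, adjusted p = 0.00148 and -1.76, SE 0.27, adjusted p = 0.000205), as did SENP1 (-0.77, SE 0.16, adjusted p = 0.00353 and -1.07, SE 0.16, adjusted p = 0.000184).

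Genes of the nuclear lamina, to which pores are tethered, and of the inner membrane moved in both directions. LMNA, the A-type lamin, rose at 6 h (1.80, SE 0.44, adjusted p = 0.0045 and 2.00, SE 0.46, adjusted p = 0.0028) and at 14 days (1.81, SE 0.60, adjusted p = 0.0418 and 1.74, SE 0.60, adjusted p = 0.0311). LMNB1, a B-type lamin, fell at 6 h (-0.98, SE 0.15, adjusted p = 0.000101 and -1.37, SE 0.16, adjusted p = 8.37e-06) and at 14 days (-1.20, SE 0.33, adjusted p = 0.0195 and -1.77, SE 0.35, adjusted p = 0.00119). TMPO, a lamina-binding protein of the inner membrane, fell at 6 h (-0.92, SE 0.16, adjusted p = 0.000422 and -1.26, SE 0.18, adjusted p = 4.23e-05) and at 14 days (-1.13, SE 0.23, adjusted p = 0.00373 and -1.53, SE 0.24, adjusted p = 0.000215). SUN1, an inner-membrane protein found near pores, rose at 6 h (0.37, SE 0.09, adjusted p = 0.00419 and 0.76, SE 0.10, adjusted p = 1.67e-05), and SUN2 rose with vorinostat at 14 days (0.56, SE 0.19, adjusted p = 0.03). Of the 13 genes of this list, 3 rose and 6 fell with pracinostat at 6 h, 4 and 5 with vorinostat at 6 h, 1 and 4 with pracinostat at 14 days, and 2 and 6 with vorinostat at 14 days. Of all genes, 40.1%, 43.9%, 22.6% and 37.6% were called in these comparisons.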

How the data were processed

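RNA-seq of 37 libraries was used. Of 38 listed samples, 1 further SUDHL4 vorinostat sample of 14 days was not analysed here because no count column matched it. RNA was taken with Trizol and libraries were made with an Illumina TruSeq RNA kit, per the labels' protocols. STAR, edgeR and the build hg38 appear in the submitters' processing notes, without versions. The authors deposited raw gene counts, and separately log2 values that were recomputed here as log2 CPM with TMM scaling and a prior count of 0.25. The sources used here give neither the strand setting nor the annotation release. How reads on bases shared with opposite-strand genes were counted is therefore unknown.

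The counts were tested with edgeR 4.0.16 (quasi-likelihood, robust, TMM, filterByExpr with minimum count 10 and minimum total 15) in R 4.3.3. Cell line was a block, and line with time for the differences between times. CPM of the nucleoporins are TMM-scaled, while CPM of the cell-type marker and proliferation genes were scaled by library totals. SE is the log2 fold change divided by the root of F. P-values were adjusted by Benjamini-Hochberg over all genes tested and called under 0.05. Names and positions came from GENCODE 29, which held 17859 of 18011 genes, and promoters from RefSeq GRCh38.p14. Exon length for RPKM was the union of GENCODE exons.

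Libraries were paired by cell line, from the labels. Deviations from the group means correlated at 0.750 or more within a line at 6 h (16 pairs) and 0.546 or more at 14 days (30 pairs), against at most 0.186 and 0.222 between lines. Alternatives were library totals, other size factors, DESeq2 1.42.0, limma 3.58.1 on the deposited log2 values, no filter, no block, other controls and each line left out. Per-library values are given for the 3 largest called rises and falls in each drug comparison and the largest change in each class, and related genes for up to 2 each way. Members and lists were chosen with earlier results of these data known. The fit was tested on simulated data. Precision is limited by 5 or 6 lines per group and totals of 3188528 to 8919622 counts.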

Additional observations from a re-analysis of the deposited data

Results flagged for a closer look

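Among 120 sets of line values, 1 line stood apart from the others in 2 (1.67%, where chance gives about 5%). RAE1 with pracinostat at 14 days had a log2 difference of -0.50 in PFEIFFER, against -0.20 to -0.09 in the other 4 lines. NUP160 with vorinostat at 14 days had -1.98 in TOLEDO, the line with its highest solvent level, against -0.66 to -0.12 in the others.

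The drug effect differed between 6 h and 14 days for the following members, by the test of that difference. Under pracinostat the 14 day effect was lower by log2 differences of -1.10 for NUP43, -0.96 for NUP58, -0.94 for NUP93, -0.85 for NUP85, -0.77 for NUP133, -0.75 for NUP37, -0.73 for NDC1, -0.70 for NUP98, -0.66 for AHCTF1, -0.63 for NUP54 and -0.50 for RANBP2. Under vorinostat it was -1.27 for NUP58, -1.23 for NUP93, -1.15 for NUP155, -1.09 for NUP43, -1.03 for NUP133, -0.995 for NUP98, -0.91 for AHCTF1 and -0.84 for NUP188. Further vorinostat values were -0.82 for NUP85, -0.82 for NDC1, -0.79 for NUP107, -0.77 for TPR, -0.65 for NUP54, -0.64 for NUP37, -0.62 for RANBP2 and -0.62 for NUP205. NUP62 (0.70) and NUP42 (0.45) had higher effects at 14 days.

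Of these, the calls kept in each left-out line and each other setting except the fit without block were those of NUP133, NUP43, NUP58, NUP93 and NUP98 under pracinostat, and of AHCTF1, NUP133, NUP155, NUP188, NUP43, NUP58, NUP93, NUP98 and TPR under vorinostat.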

How the results depend on the processing

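No member changed direction in a call under any alternative run. Without the replicate block, the number of nucleoporins called fell to 2 for pracinostat and 6 for vorinostat at 6 h, 0 and 8 at 14 days, 1 and 1 for the differences between times, and 0 for solvent over time. The number called over all genes dropped in each of these fits as well. Leaving out 1 line at a time gave 11 to 15 and 14 to 16 called at 6 h, 10 (without PFEIFFER) to 17 and 20 to 23 at 14 days, 5 (without SUDHL4; 7 without PFEIFFER) to 15 and 11 (without PFEIFFER or SUDHL4) to 18 for the differences between times, 1 to 6 for solvent over time (2 without OCILY1 or PFEIFFER, 3 without TOLEDO), and 0 for pracinostat against vorinostat. With the mean of both solvent sets as control, 21 and 23 were called at 14 days. Library totals moved the median log2 fold change of all genes from 0.03 to 0.13 (pracinostat, 6 h), 0.12 to 0.01 (vorinostat, 14 days), 0.06 to -0.09 and 0.09 to -0.07 (differences between times, pracinostat first). Calls that held in every setting other than the one without block were 10 of 15 and 14 of 16 at 6 h, 10 of 18 and 20 of 22 at 14 days, and 5 of 11 and 9 of 18 between times. The causes were not tested. Arms of 5 or 6 libraries limit what could be called.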
